A study of Mus musculus with 6 samples.

Results

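The genes described here are 10 genes of blood coagulation and of the breakdown of fibrin, chosen by symbol: F3, F7, F10, F5, F13a1, Thbd, Plau, Plaur, F2r and Thbs1. All 10 were found among the 35237 genes of the FPKM table and again among the 36536 entries of a second table made from the same libraries with ALEXA-Seq. The libraries were 3 of bone marrow monocytes (BMDM) and 3 of brainstem microglia (BSM) of C57BL/6 mice at 6 weeks of age, with no treatment or transgene named for either group. BMDM had been sorted by FACS as CD11b+ CD45high CD115+ Ly6G- cells and BSM as CD11b+ CD45low CD115low Ly6G- cells, and each library came from the pooled cells of a set of mice. By the labels the first library of either group came from male mice and the other 2 from female mice. The study's supplement lists the same sexes, whereas its main text describes male mice. The comparison asks which transcripts set bone marrow monocytes apart from the resident macrophages of the brain.

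Coagulation starts when tissue factor, the product of F3, binds factor VIIa on a cell surface and activates factor X. Factor Xa, with factor Va as its cofactor, turns prothrombin into thrombin, which cleaves fibrinogen to fibrin, and factor XIIIa then cross-links the fibrin strands. Thrombomodulin and the protein C pathway restrain thrombin, and plasmin, made from plasminogen by urokinase or by tissue plasminogen activator, dissolves the clot. Most soluble factors are made in the liver, while the A subunit of factor XIII is known as a product of monocytes, macrophages and megakaryocytes.

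FPKM scales the reads of a gene by its length and by the mapped reads of the library, so levels of different genes may be compared. The log2 fold changes below are differences between group means of log2(FPKM + 1), BMDM minus BSM, with their standard error (SE), and understate the change of low genes. They were tested with limma among the 6364 genes that reached an FPKM of 3 in at least 1 library, with Benjamini-Hochberg adjusted p-values. The labels call the 3 libraries of a group biological replicates, and the study's methods describe them as made independently. In sorted bulk cells a lower number of expressing cells and less RNA per cell cannot be told apart.

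Marker genes followed the labels. All 4 monocyte markers tested (Ccr2, Ly6c2, Lyz2 and Fn1) were higher in BMDM and the microglia markers P2ry12, Tmem119, Cx3cr1, Siglech and Olfml3 were higher in BSM. The summed FPKM was 163199 to 194184 in the BMDM libraries and 68287.8 to 75021.4 in the BSM libraries. Across all genes tested the log2 fold change had a median of 0.81. BSM replicate 1 had 472 of the tested genes listed at 0, against 51 to 115 in the other 5 libraries. The study's supplement lists it with the lowest RNA concentration and with an RNA integrity far below that of every other library. A second measure of RNA quality has no value there for BSM replicate 1. F13a1, Plau, Thbs1 and Tgm2 had their highest BSM value in this library. Without it the 6 tested genes were called in the same directions, with log2 fold changes of 6.52 for F13a1 and -1.70 for Plau, and the part of RNA quality in these values was not tested. An FPKM of 0 can be a failed estimate: Itgam, which encodes the CD11b used for the sort, was listed at 0 in BSM replicate 2 while its ALEXA-Seq value there was 2435. Genes with a library at 0 are therefore given library by library.

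Promoter sequences are shown for 4 of the 5 genes higher in BMDM, as genes that differed in the same direction, in RefSeq windows (build GRCm38.p6) from 250 bases before to 50 bases after the annotated start. RefSeq windows were matched for 7 of the 10 genes, namely F3, F7, F10, F5, F13a1, Plaur and F2r, and F13a1 has 2 of them. Capitals mark matches, on either strand, to GAGGAAG, a sequence bound by the myeloid factor PU.1, or to TGANTCA, the sequence of AP-1.
F13a1, window 1 (chr13:37050195-37050494, minus strand): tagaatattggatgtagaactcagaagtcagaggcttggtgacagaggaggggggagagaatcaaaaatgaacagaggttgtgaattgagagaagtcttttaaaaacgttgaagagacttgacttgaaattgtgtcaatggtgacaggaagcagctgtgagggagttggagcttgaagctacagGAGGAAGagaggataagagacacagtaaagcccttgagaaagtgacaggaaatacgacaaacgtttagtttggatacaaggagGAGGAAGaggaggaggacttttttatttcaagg
F13a1, window 2 (chr13:37049164-37049463, minus strand): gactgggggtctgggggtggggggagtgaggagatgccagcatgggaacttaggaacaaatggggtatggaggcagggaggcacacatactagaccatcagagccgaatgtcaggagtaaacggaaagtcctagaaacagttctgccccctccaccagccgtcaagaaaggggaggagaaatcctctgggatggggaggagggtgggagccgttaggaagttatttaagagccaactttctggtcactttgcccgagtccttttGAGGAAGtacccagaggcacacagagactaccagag
F10 (chr8:13037058-13037357, plus strand): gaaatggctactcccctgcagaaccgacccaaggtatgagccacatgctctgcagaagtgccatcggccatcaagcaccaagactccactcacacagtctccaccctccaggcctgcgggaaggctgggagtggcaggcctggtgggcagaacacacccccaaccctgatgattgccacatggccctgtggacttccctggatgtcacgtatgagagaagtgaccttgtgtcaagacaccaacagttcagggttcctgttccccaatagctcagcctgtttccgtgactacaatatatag
F5 (chr1:164151585-164151884, plus strand): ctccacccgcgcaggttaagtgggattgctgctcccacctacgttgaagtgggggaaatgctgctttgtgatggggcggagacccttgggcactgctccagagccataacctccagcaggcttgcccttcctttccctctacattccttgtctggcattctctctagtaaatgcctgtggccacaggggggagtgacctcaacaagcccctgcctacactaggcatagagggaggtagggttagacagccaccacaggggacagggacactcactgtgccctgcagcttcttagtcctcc
Plaur (chr7:24462233-24462532, plus strand): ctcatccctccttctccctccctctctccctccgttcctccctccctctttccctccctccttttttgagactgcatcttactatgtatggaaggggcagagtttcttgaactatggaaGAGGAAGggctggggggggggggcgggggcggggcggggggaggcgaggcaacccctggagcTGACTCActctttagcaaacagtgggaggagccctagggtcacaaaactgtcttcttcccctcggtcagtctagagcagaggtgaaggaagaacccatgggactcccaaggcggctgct

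GAGGAAG was found in both windows of F13a1, starting 66 bases before and 17 bases after the start of the first and 14 bases after that of the second. It was also found in Plaur, 131 bases before the start, and in none of the windows of F3, F7, F10, F5 and F2r. Of all 32851 RefSeq windows, 13.6% hold it. TGANTCA was found in Plaur, 69 bases before the start, in F3 at 2 places and in F2r once, and 7.81% of all windows hold it. These patterns were among 7 that were searched, and were chosen for display after their matches were seen. TATAAA matched F3 alone among the 7 genes (13.6% of all windows), GAGGAAGT, which contains the shorter PU.1 pattern, matched F13a1 alone (3.20%), and TGACGTCA (1.79%), CACGTG (7.15%) and an NF-kB pattern (8.46%) matched none of them. A match is a run of letters and was not tested for binding.

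Of the 10 genes, 6 reached the FPKM minimum and all 6 were differentially expressed, 5 higher in BMDM and 1, Plau, higher in BSM. Among all genes tested 54.5% were differentially expressed, 45.3% higher in BMDM and 9.22% higher in BSM. The 6 genes reached the minimum only in the group where they were high, so that a difference was built into their selection. Their median log2 fold change was 2.70, against 0.81 for all genes tested, and is given as a description. The remaining 4 genes, F3, F7, F2r and Thbs1, stayed below the minimum in every library. In ALEXA-Seq values, where 47.9% of the genes tested were called, 37.1% higher in BMDM and 10.9% higher in BSM, the same 6 genes were called in the same directions and Thbs1 was the only other one tested.

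**Figure D1:**
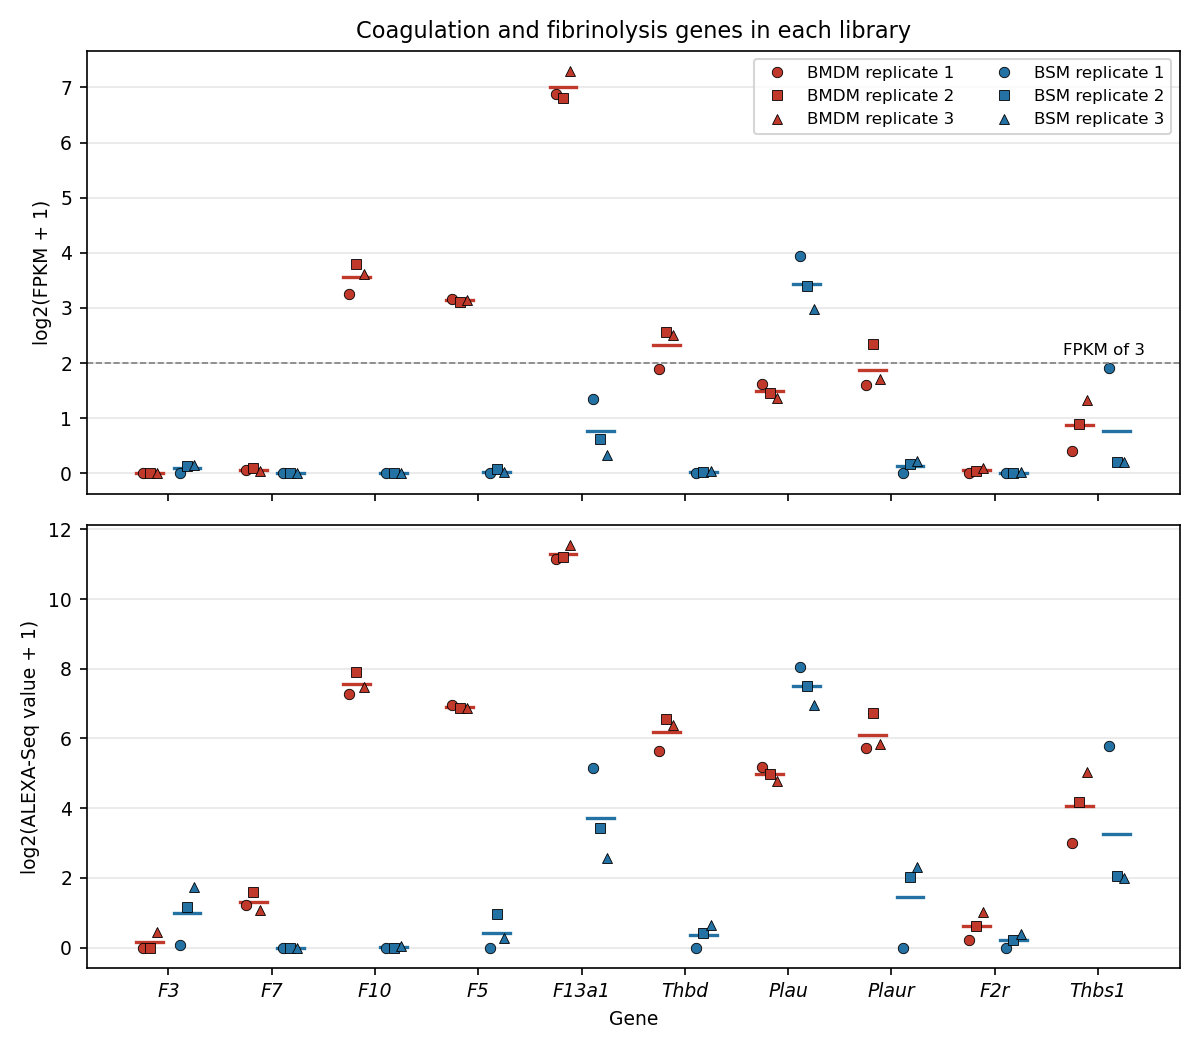
Level of each of the 10 genes in each library, as log2(FPKM + 1) in the upper panel and log2(ALEXA-Seq value + 1) in the lower panel. Points are libraries (circle, replicate 1, square, replicate 2, triangle, replicate 3), red for BMDM and blue for BSM, bars are the group means of the plotted values, and the dashed line is the FPKM minimum of 3. F13a1 stands highest among the 10 genes in BMDM, Plau is the gene with all 3 BSM points above the dashed line, and the groups overlap for F3, F2r and Thbs1 in FPKM.

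The initiators of coagulation were near 0 in both cell types. F3 (mm9, chr3:121426527-121437960), the gene of tissue factor, was at 0, 0 and 0.00829 FPKM in BMDM replicates 1, 2 and 3 and at 0.00697, 0.0927 and 0.117 in BSM. The groups overlapped (exact two-sided permutation p = 0.2, n = 3 and 3, where 0.1 is the smallest p possible). F7 (mm9, chr8:13026034-13035809), which encodes factor VII, was at 0.0428, 0.0677 and 0.0358 FPKM in BMDM and listed at 0 in all 3 BSM libraries. Its groups did not overlap, at the smallest exact permutation p of 0.1, but its highest value lay far below the minimum of 3. In ALEXA-Seq values F7 was likewise at 1.34, 2.05 and 1.10 in BMDM and at 0 in BSM. When genes of any level were tested, F7 was called (adjusted p = 0.022) at a log2 fold change of 0.07, and F3 was not (adjusted p = 0.165).

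Of the 8 listed genes of the common pathway and fibrin, F10, F5 and F13a1 reached the minimum, all 3 of them in BMDM. F10 (mm9, chr8:13037308-13056676) encodes factor X, the protease that makes thrombin. It was at 8.53, 12.8 and 11.3 FPKM in BMDM replicates 1, 2 and 3 and listed at 0 in the 3 BSM libraries. ALEXA-Seq gave 154, 239 and 178 in BMDM against 0, 0 and 0.0436 in BSM, so that both tables place every BMDM library far above every BSM library. The log2 fold change in FPKM was 3.55 (SE 0.25, adjusted p = 2.8e-05), and no ratio is given because BSM was at 0. F10 ranked 1864 of the 35237 genes by mean FPKM in BMDM.

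F5 (mm9, chr1:166081988-166150405) encodes factor V, the cofactor of factor Xa. Its FPKM was 7.96, 7.58 and 7.88 in BMDM, a coefficient of variation of 2.58%, and 0, 0.0567 and 0.0157 in BSM. The BMDM libraries were close to each other and the groups did not overlap, as held for all 6 genes tested here and for 66.8% of all genes tested. The log2 fold change was 3.10 (SE 0.23, adjusted p = 3.6e-05). By the positions in the table F5 overlaps another entry, ENSMUSG00000086593, and 3.53% of its longest transcript has a near-identical match in Gm16548.

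F13a1 (mm9, chr13:36959059-37141082) encodes the catalytic A subunit of factor XIII, the transglutaminase that cross-links fibrin. It was at 117.1, 111.4 and 156.5 FPKM in BMDM (128 ± 24.6, SD, n = 3) and at 1.54, 0.543 and 0.253 in BSM (0.778 ± 0.674, n = 3). F13a1 ranked 90 of 35237 genes by mean FPKM in BMDM, and 6851 in BSM, where it was low but above 0 in every library. Its log2 fold change of 6.23 (SE 0.32, adjusted p = 6.3e-06) was the largest of the pathway genes tested. The ratio of the mean FPKM was 165, and 323 without BSM replicate 1, the BSM library with the highest value. No near-identical match in another gene was found for F13a1 or for F10.

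None of the other genes from prothrombin to fibrin reached the minimum. F2, the gene of prothrombin, was between 0 and 0.0415 FPKM in all 6 libraries, and the remaining 4 genes of that list (Fga, Fgb, Fgg and F13b) were below 1 FPKM as well. The 7 genes of the contact and intrinsic pathway were below the minimum too. One of them, F9, the gene of factor IX, was named after its values were seen: it was at 0, 0 and 0.0274 FPKM in BMDM and at 0.747, 1.65 and 1.22 in BSM. With an FPKM minimum of 1 F9 was tested and was higher in BSM (log2 fold change -1.11, SE 0.23, adjusted p = 0.0059).

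Factors VII, IX and X, protein C and protein S need vitamin K-dependent carboxylation, and factor V needs a cargo receptor to leave the endoplasmic reticulum. Vkorc1, the vitamin K epoxide reductase, was at 5.55 ± 1.86 FPKM in BMDM and 6.38 ± 5.39 in BSM (SD, n = 3 each). Its log2 fold change was 0.04 (SE 0.50, adjusted p = 0.954). However, 53.7% of its longest transcript has a near-identical match in Gm21974, and its positions overlap those of BC039632. Lman1 and Mcfd2, which form the cargo receptor for factors V and VIII, were at 9.92 ± 1.50 and 1.81 ± 1.09 FPKM in BMDM and at 8.08 ± 2.07 and 3.53 ± 2.21 in BSM. Neither passed the test (log2 fold change 0.28 and -0.65, adjusted p = 0.378 and 0.211), but both depended on the scaling of the libraries. Mcfd2 was called higher in BSM under all 3 scalings (adjusted p = 0.047 after upper quartile scaling, 0.027 with quantiles equalised and 0.023 with sums equalised). Lman1 turned to -0.49, -0.46 and -0.90 under them and was called under the last (adjusted p = 0.027). Vkorc1 turned to -0.74 when quantiles were equalised and to -1.05 when sums were, with no call in either. Ggcx, the carboxylase, was below the minimum, at 0.309 ± 0.00412 FPKM in BMDM and 0.800 ± 0.478 in BSM.

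Among the anticoagulant genes the 3 that were tested did not move in one direction. Thbd (mm9, chr2:148230202-148233924) encodes thrombomodulin, the receptor that turns thrombin towards activating protein C. It was at 2.72, 4.93 and 4.69 FPKM in BMDM and at 0, 0.0181 and 0.0288 in BSM. Each BMDM library lay above each BSM library, with a log2 fold change of 2.30 (SE 0.30, adjusted p = 0.00058). ALEXA-Seq values were 49.3, 93.5 and 81.9 in BMDM and 0, 0.340 and 0.575 in BSM.

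Pros1 encodes protein S, the cofactor of activated protein C and a ligand of the TAM receptors. It was at 2.73, 6.66 and 2.97 FPKM in BMDM and at 20.7, 22.7 and 25.0 in BSM, a log2 fold change of -2.29 (SE 0.32, adjusted p = 0.00079), and its positions overlap those of Arl13b. Tfpi encodes the inhibitor of tissue factor and factor Xa. It was at 0.884, 0.127 and 0.731 FPKM in BMDM and at 1.08, 4.18 and 4.75 in BSM, a log2 fold change of -1.36 (SE 0.45, adjusted p = 0.033). That call was lost in 5 of the 6 fits that left out a library: the adjusted p was 0.059, 0.111 and 0.075 without BMDM replicates 1, 2 and 3, 0.105 and 0.118 without BSM replicates 2 and 3, and 0.002 without BSM replicate 1. It was also lost when genes of any level were tested (adjusted p = 0.103). Proc, the gene of protein C, was listed at 0 in every library. Procr, its endothelial receptor, was at 0, 0.477 and 0.145 FPKM in BMDM and at 0.0428, 2.26 and 1.67 in BSM, with overlapping groups.

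Urokinase and its receptor moved in opposite directions. Plau (mm9, chr14:21655929-21662610), the gene of urokinase, was at 2.09, 1.76 and 1.58 FPKM in BMDM (1.81 ± 0.259, SD, n = 3) and at 14.5, 9.50 and 6.89 in BSM (10.3 ± 3.85, n = 3). All 3 BSM libraries were above all 3 BMDM libraries, with a ratio of the means, BSM to BMDM, of 5.69 and a log2 fold change of -1.96 (SE 0.29, adjusted p = 0.0012). Plau ranked 1066 of 35237 genes by mean FPKM in BSM and 6211 in BMDM.

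Plaur (mm9, chr7:25247519-25260903) encodes the urokinase receptor, which holds urokinase at the cell surface. It was at 2.04, 4.06 and 2.27 FPKM in BMDM and at 0, 0.130 and 0.161 in BSM. Its log2 fold change was 1.75 (SE 0.32, adjusted p = 0.0029). BMDM replicate 2 alone took Plaur over the minimum, so that without this library it was not tested in FPKM, while the ALEXA-Seq values (52.1, 105.1 and 56.9 in BMDM, and 0, 3.10 and 3.97 in BSM) kept the call in every fit that left out a library.

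Of the other genes for plasmin and its control, Anxa2 and S100a10, whose products form the annexin A2 complex that gathers plasminogen and tissue plasminogen activator on the cell surface, were higher in BMDM. Anxa2 was at 23.7, 29.8 and 28.1 FPKM in BMDM and at 0, 0.0109 and 0.192 in BSM (log2 fold change 4.72, SE 0.23, adjusted p = 4.9e-06). S100a10 was at 17.1, 28.4 and 23.8 FPKM in BMDM and at 0, 0.434 and 0.249 in BSM (log2 fold change 4.28, SE 0.28, adjusted p = 2.0e-05). Serpine2 encodes protease nexin 1, an inhibitor of thrombin, urokinase and plasmin, and went the other way. It was at 0.228, 1.34 and 0.131 FPKM in BMDM and at 20.6, 26.8 and 25.0 in BSM, a log2 fold change of -4.07 (SE 0.32, adjusted p = 4.9e-05).

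Serpinb2, which encodes an inhibitor of urokinase, was at most 0.135 FPKM in any library. Plg, the gene of plasminogen, was listed at 0 in every library, and Plat, the gene of tissue plasminogen activator, had a single value above 0, of 0.0145 FPKM in BSM replicate 2. Lrp1, an endocytic receptor that clears proteases bound to their inhibitors, was at 7.24 ± 1.51 FPKM in BMDM and 9.76 ± 2.66 in BSM (SD, n = 3) and did not pass the test (log2 fold change -0.37, SE 0.28, adjusted p = 0.286), but was called higher in BSM under the same 3 scalings in that order (adjusted p = 0.021, 0.017 and 0.0049).

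The thrombin receptor PAR1, encoded by F2r (mm9, chr13:96371759-96388414), was at 0.0106, 0.0340 and 0.0712 FPKM in BMDM and at 0, 0.0103 and 0.0221 in BSM. The groups overlapped (exact two-sided permutation p = 0.2), and no library came near the minimum. F2rl1 and F2rl3, which encode PAR2 and PAR4, were at most 0.0937 and 0.0160 FPKM. F2rl2, which encodes PAR3, was the one receptor of the family that was tested. It was at 10.1, 3.56 and 8.54 FPKM in BMDM and at 0, 0.109 and 0.0676 in BSM (log2 fold change 2.89, SE 0.37, adjusted p = 0.00053). F2rl2 lies wholly within Iqgap2 on the opposite strand, and Iqgap2, named after its values were seen, was at 45.2 ± 5.91 FPKM in BMDM and 0.0734 ± 0.0551 in BSM (SD, n = 3). The sources used here do not state that the reads kept their strand, so reads of the 2 genes cannot be told apart.

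Thbs1 (mm9, chr2:117937612-117952869) encodes thrombospondin 1, an adhesive glycoprotein of platelet granules and matrix. It was at 0.328, 0.860 and 1.53 FPKM in BMDM and at 2.77, 0.151 and 0.153 in BSM (exact two-sided permutation p = 1). BSM replicate 1 was the highest of the 6 libraries and the other 2 BSM libraries were the lowest. ALEXA-Seq values were again highest in BSM replicate 1, with 53.7 there against 3.15 and 2.98 in replicates 2 and 3, and no call (log2 fold change 0.80, SE 1.13, adjusted p = 0.58). The sign of that value turned under scaling of the libraries (-0.11 after quantile normalization, -0.34 after scaling to the same sum). Of the receptors of thrombospondin 1, Cd47 was higher in BMDM, at 63.4 ± 4.84 FPKM against 12.1 ± 1.49 in BSM (log2 fold change 2.30, SE 0.22, adjusted p = 0.00011), and its positions overlap those of ENSMUSG00000079488. Cd36 was below the minimum, at 0.715, 0.569 and 0.829 FPKM in BMDM and at 0, 0.154 and 0.131 in BSM.

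Of the wider list of 60 pathway genes, 59 were in the FPKM table and 18 were tested, of which 9 were higher in BMDM, 4 were higher in BSM and 5 were not called. These counts stand beside 45.3% of all genes tested that were higher in BMDM and 9.22% that were higher in BSM. Without the 10 genes described above, 12 were tested: 4 were higher in BMDM (Anxa2, S100a10, F2rl2 and Cd47), 3 were higher in BSM (Pros1, Tfpi and Serpine2) and 5 were not called. These 5 were Vkorc1, Lman1, Mcfd2, Lrp1 and the tissue transglutaminase gene Tgm2, which had 9.64, 1.02 and 0.698 FPKM in BSM and reached the minimum in BSM replicate 1 alone (log2 fold change -1.56, SE 0.67, adjusted p = 0.081). In FPKM Tgm2 was called without BSM replicate 3 (adjusted p = 0.040) and with the replicate number as a block (0.047). It was also called with a pseudocount of 0.1 (0.033) and after quantile normalization (0.049). In ALEXA-Seq values Tgm2 was called higher in BSM (log2 fold change -4.65, SE 0.93, adjusted p = 0.0068). Its ALEXA-Seq value was 220 in BSM replicate 1 against 28.1 and 18.7 in replicates 2 and 3. Of its longest transcript 22.6% has a near-identical match in Gm20412 and Rprd1b. The positions of Tgm2 overlap those of Rprd1b, which lies on the opposite strand. The other 41 genes in the table were below the minimum, 8 of them listed at 0 in all 6 libraries.

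**Figure D2:**
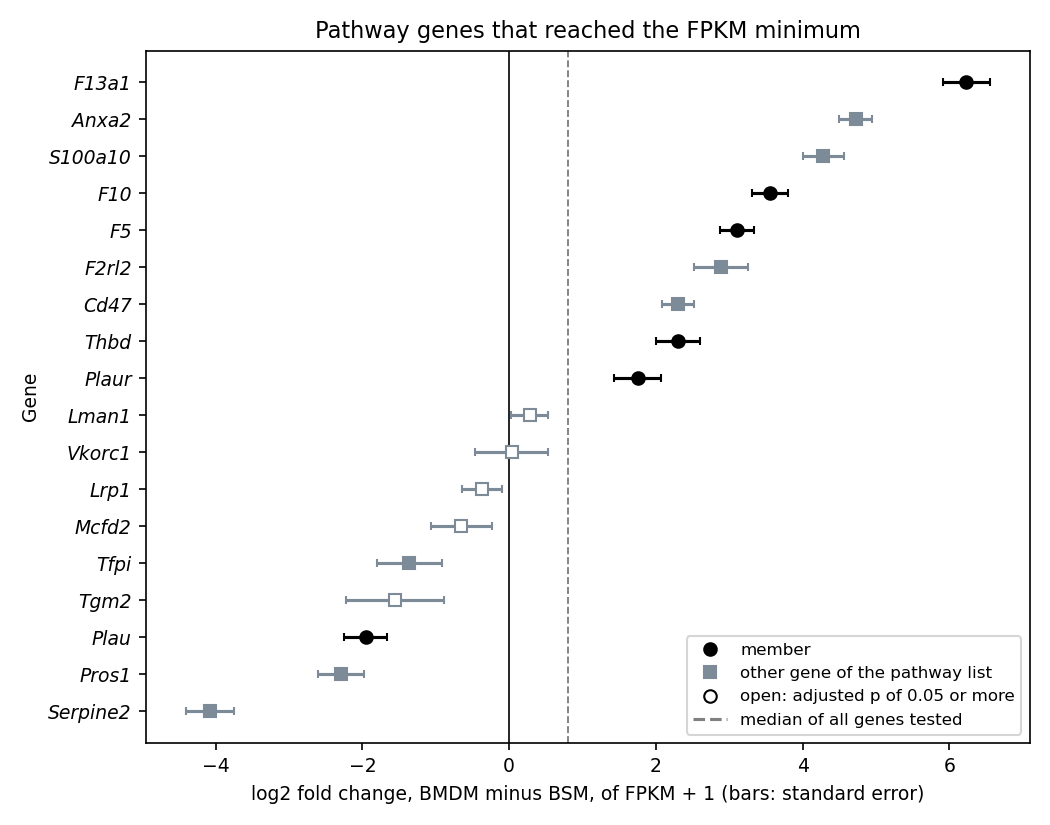
Log2 fold change, BMDM minus BSM, of log2(FPKM + 1) for the 18 pathway genes that reached the FPKM minimum, with bars for the standard error. Black circles are the 6 tested genes of the 10 and grey squares the other 12, open symbols had an adjusted p of 0.05 or more, and the dashed line is the median of all genes tested (0.81). F13a1 lies farthest to the right at 6.23 and Serpine2 farthest to the left at -4.07.

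F7 and F10 lie side by side on chromosome 8, with 1498 bases between them in the positions of the table. Genes within 50000 bases were looked at for each of the 10 genes, and this locus was chosen after its values were seen. F10 was at 8.53 FPKM or above in every BMDM library, while F7 before it did not exceed 0.0677 and Proz, the gene of protein Z, 4288 bases beyond it, was at 0.283 ± 0.0766 FPKM in BMDM (SD, n = 3). Mcf2l and Pcid2 were at 0.778 ± 0.402 and 0.982 ± 0.795 FPKM in BMDM, below the minimum. Cul4a, 48944 bases away, was the other gene tested there, at 17.8 ± 4.12 FPKM in BMDM and 10.2 ± 1.93 in BSM (log2 fold change 0.74, SE 0.26, adjusted p = 0.044). In the same search Thbd had Cd93 28451 bases away, at 6.25 ± 1.98 FPKM in BMDM and at 0, 0.0295 and 0.0278 in the BSM libraries (log2 fold change 2.80, SE 0.28, adjusted p = 0.00017).

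**Figure D3:**
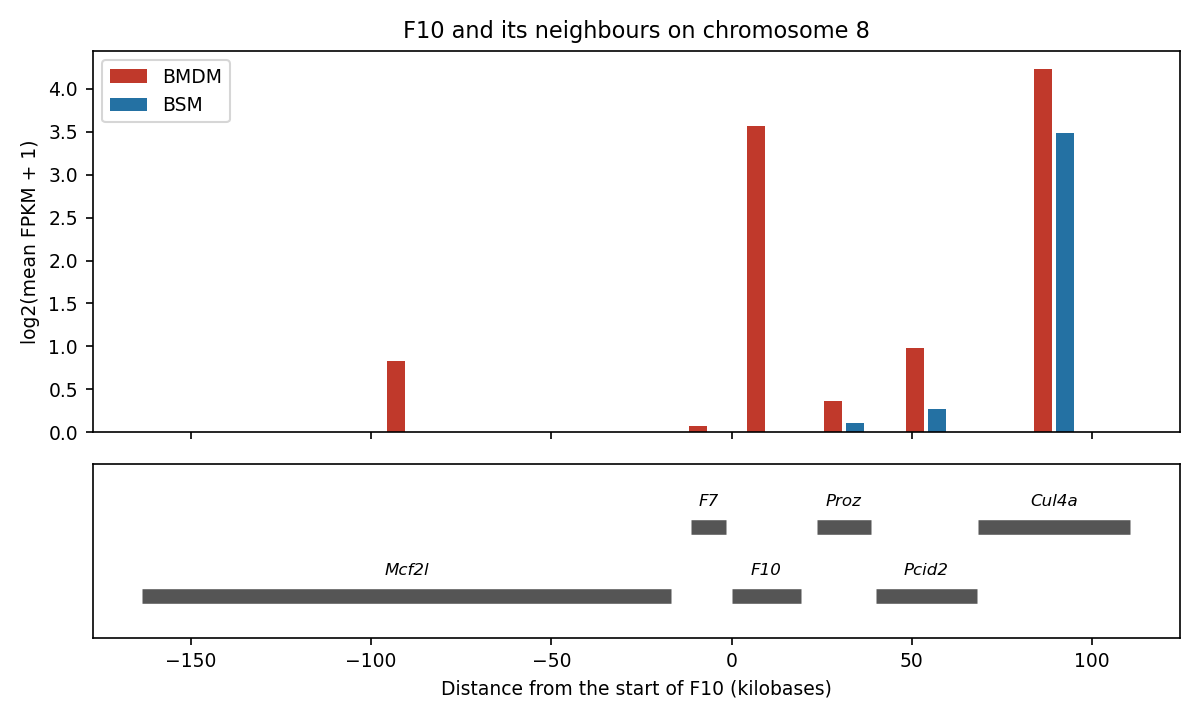
Mean FPKM (plotted as log2 of the mean + 1, bars from 0) of F10 and its named neighbours in BMDM (red, n = 3) and BSM (blue, n = 3), above the extent of each gene in kilobases from the start of F10. The bars of F10 and Cul4a are the tall ones in BMDM, and of these Cul4a alone has a tall bar in BSM.

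The genes with levels most like those of the 6 tested genes were found by the Euclidean distance of log2(FPKM + 1) over the 6 libraries. The values were not scaled by gene, so this distance mainly matches the level of a gene in each group. Shared regulation or function was not tested. For F13a1 they were Vim, Mki67 and Ahnak (distances 0.823, 1.42 and 1.44), and for F10 they were I830127L07Rik, Nuf2 and Clspn (0.134, 0.238 and 0.342). F5 was nearest to Olfm1, Pdlim1 and Serpinb10 (0.143, 0.154 and 0.289), and Thbd to Cenpa, Uhrf1 and Shcbp1 (0.173, 0.185 and 0.199). Plaur was nearest to ENSMUSG00000069196, Kif2c and Kntc1 (0.277, 0.284 and 0.287), and Plau to Arap3, P2ry6 and Plod1 (0.586, 0.674 and 0.689).

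Markers of other cells were present at different levels in the 2 groups. The summed FPKM of 10 platelet markers was 1.61, 1.67 and 8.17 in BMDM replicates 1, 2 and 3 and 2.41 to 3.86 in BSM, with Gp1bb and Gp6 at 0 in every library. Most of the sum in BMDM replicate 3 came from Ppbp (6.50 FPKM), which was not called in FPKM (adjusted p = 0.086). It was called higher in BMDM in ALEXA-Seq values (adjusted p = 0.015). Most of the BSM sums came from Gp1ba (3.61, 2.95 and 2.05 FPKM), which was called higher in BSM (adjusted p = 0.017). F5 and F13a1 are known in platelets and megakaryocytes. In BMDM replicates 1, 2 and 3 F5 had 7.96, 7.58 and 7.88 FPKM and F13a1 had 117.1, 111.4 and 156.5. F13a1 was thus highest in replicate 3, and F5 in replicate 1. The sum of 8 endothelial markers was 0.916 to 1.43 in BMDM and 0.163 to 0.989 in BSM, with Cldn5 and Tie1 at 0 in BSM.

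The sum of 7 granulocyte markers was 46.0, 328.7 and 83.2 FPKM in BMDM and at most 0.0714 in BSM, with Ly6g at 0 in 5 of the 6 libraries. Most of the BMDM sums came from Mpo (32.7, 181 and 67.1 FPKM in replicates 1, 2 and 3) and Elane (9.75, 56.0 and 10.7). Ngp was at 2.44, 77.1 and 3.44 FPKM, and Camp, Ltf and Prtn3 were at most 5.86, 3.48 and 5.03. BMDM replicate 2, the highest in these markers, was also the library in which F10, Thbd and Plaur were highest. F13a1 (111.4 FPKM) and F5 (7.58) had their lowest BMDM value in this library, and Plau (1.76) lay between the others. The study's supplement lists this library with the fewest sorted cells and the lowest share of mapped reads. The sum of 5 erythroid markers was 6.81 to 38.5 in BMDM and 0 to 0.158 in BSM. Without BMDM replicate 2 the log2 fold changes were 3.44 for F10 and 2.18 for Thbd.

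The sum of 6 astrocyte markers was 0.259 to 0.397 in BMDM and 5.32 to 9.54 in BSM, nearly all of it from Slc1a3, with Gfap at 0 in every library. Neuronal markers summed to at most 0.249, and oligodendrocyte markers to 7.06 to 12.8 in BMDM and 1.78 to 2.13 in BSM. Markers of border macrophages summed to 1.89 to 2.49 in BMDM and 0.472 to 4.26 in BSM. The sum of 10 immediate early genes was 21.4 to 64.1 in BMDM and 230.9 to 380.3 in BSM. Of the 7 that were tested 4 were higher in BSM, beside 9.22% of all genes tested. The part of any of these in the levels of the coagulation genes was not tested.

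**Figure D4:**
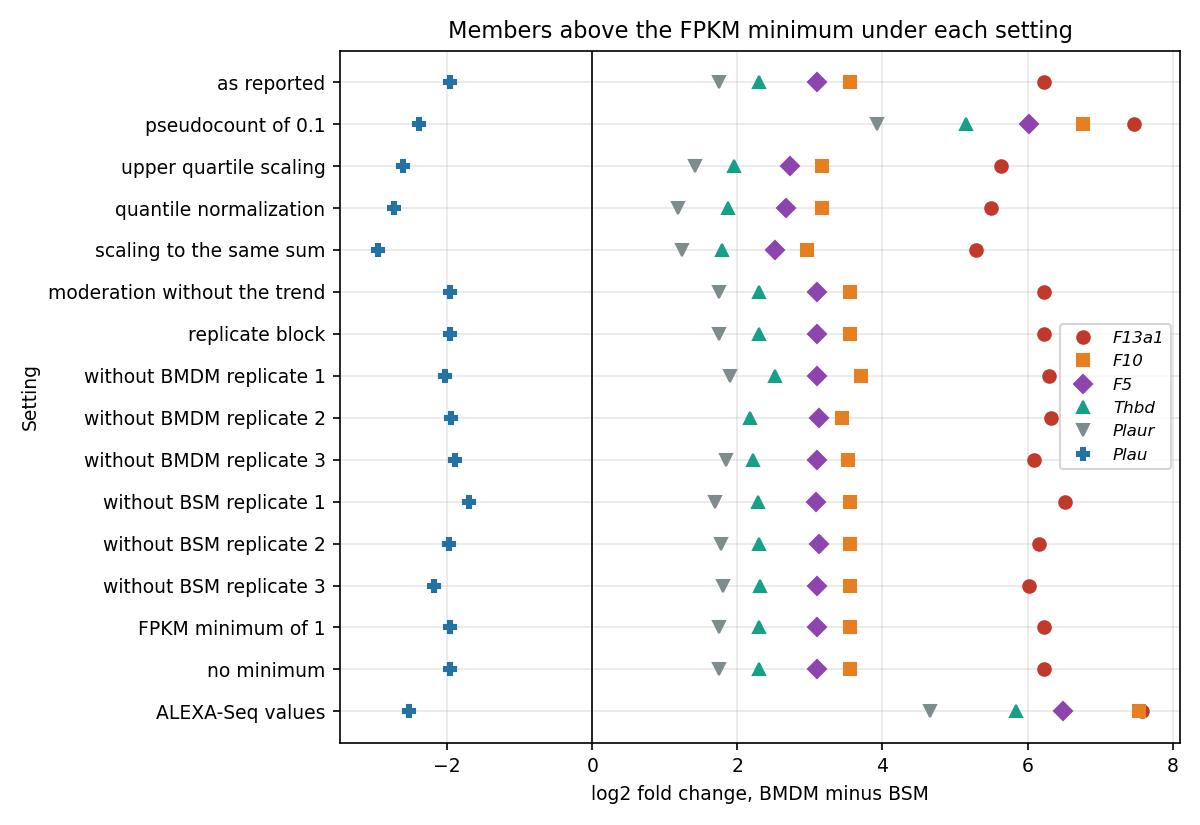
Log2 fold change, BMDM minus BSM, of the 6 tested genes under each alternative setting, 1 row per setting. Plau stays to the left of 0 and the other 5 genes to the right in each row where they were tested, and Plaur has no point in the row without BMDM replicate 2. The rows with a pseudocount of 0.1 and with ALEXA-Seq values are on their own scales.

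Under the 14 alternatives to the FPKM test, each of F10, F5, F13a1, Thbd and Plau kept its direction and its call, and Plaur did in the 13 in which it was tested. The log2 fold change ranged from 5.29 to 7.46 for F13a1, from 2.96 to 6.76 for F10, from 2.52 to 6.02 for F5, from 1.79 to 5.15 for Thbd, from 1.18 to 3.93 for Plaur and from -2.95 to -1.70 for Plau. The upper ends for the 5 genes higher in BMDM came from the pseudocount of 0.1, which weighs values near 0 in BSM more.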

How the data were processed

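The 6 RNA-Seq libraries, 3 of BMDM and 3 of BSM, were used. The authors mapped paired-end reads by TopHat, and the deposited gene levels are FPKM made with Cufflinks. They also deposited an expression signal from ALEXA-Seq, whose normalization is not given in the sources used here. The submitters' processing notes list CASAVA 1.7.0, TopHat 1.3.1, Bowtie 0.12.7, Cufflinks 1.0.3 and the build mm9. The study's supplement lists the total and mapped reads of each library, but neither table holds whole reads. The number of reads behind each value is therefore not given. Starts were counted from 0 in the files (7542 of 17788 genes then matched GENCODE M21 in span, 266 otherwise) and are given from 1.

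Values were compared with limma 3.58.1 in R 4.3.3 (mean-variance trend, Benjamini-Hochberg adjustment, adjusted p under 0.05) on log2(value + 1) for the 6364 genes whose highest FPKM over the libraries was 3 or more, and for the 6364 genes with the highest ALEXA-Seq value. Genes below the minimum were compared by the exact two-sided permutation test of 3 against 3 libraries, whose smallest p is 0.1. The fit was also run on normal values simulated from the means and within-group variances of the tested genes, and the outcome is not given here. Near-identical matches were blastn matches of at least 100 bases at 95% identity to other genes in GENCODE M21 transcripts. Genes at the same place were not left out, so a match can be sequence shared with an overlapping gene. Python 3.11.15, pandas 2.3.3, numpy 2.4.6, scipy 1.17.1 and matplotlib 3.10.9 were used.

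The genes, the pathway list and the marker lists were chosen with earlier results of these data known. The text names all 10 genes, the called genes of the pathway list whose groups did not overlap, a fixed set of further pathway genes apart from 1 that is not reported here, and for each tested gene the 3 genes nearest to it. Others are said to have been chosen after their values were seen. Alternatives were another pseudocount, other minimums, 3 scalings, no trend, the replicate number as a block, and leaving out each library.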

Additional observations from a re-analysis of the deposited data

How the results depend on the processing

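Under the alternatives to the FPKM and ALEXA-Seq tests, 78 counts stayed within 1.5 times the reported count. The 89 fits of the 6 tested genes of the 10 kept their direction and call. Other pathway genes were less stable: Tfpi lost its call in 5 of the 6 fits that left out a library, Lman1 changed sign, and Lrp1, Mcfd2 and Tgm2 gained calls. The exceptions among the counts were the pathway genes higher in BSM. They numbered 7 instead of 4 after quantile normalization (Lrp1, Mcfd2 and Tgm2 were added). After scaling to the same sum they numbered 7 (Lman1, Lrp1 and Mcfd2 were added). The number of the 10 genes higher in BMDM in FPKM was 5, with 4 without BMDM replicate 2, where Plaur was not tested, and 6 with no minimum, where F7 was added. Over all genes tested, 2131 of 5880 were higher in BMDM without BMDM replicate 2 and 3164 of 21167 with no minimum. Leaving out 1 library at a time gave 8 to 9 pathway genes higher in BMDM and 3 to 4 higher in BSM. Those fits tested 5880 to 6314 genes in all, with 2004 to 3202 higher in BMDM and 459 to 674 higher in BSM. The split of all genes tested depended on the scaling: 2883 higher in BMDM and 587 in BSM as reported, 1380 and 1051 after upper quartile scaling, 1370 and 1234 after quantile normalization, and 973 and 1582 when libraries were brought to the same sum. Under these scalings the median log2 fold change over all genes was 0.14, 0.01 and -0.22, against 0.81. With the replicate number as a block, 5 of the 10 genes were higher in BMDM and 1 in BSM, and 9 and 5 of the pathway list, where Tgm2 was added. Of all 6364 genes tested with the block, 2905 were higher in BMDM and 566 in BSM. Libraries with the same number share the sex given in the labels, and the correlation of their deviations from the group means across genes was -0.019, -0.008 and 0.134 for numbers 1, 2 and 3, which was not taken as pairing. The number of reads behind a value is not given, and FPKM far below the minimum do not show that a gene is off.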
